A study of Mus musculus with 6 samples.

Results

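The ribosomal protein genes described here are the genes that the KEGG column of the deposited annotation assigns to the ribosome pathway. There were 34 of them among the 4864 genes of the table, 18 for the cytosolic ribosome (8 of the large subunit, named Rpl, and 10 of the small subunit, named Rps) and 16 for the mitochondrial ribosome (14 Mrpl and 2 Mrps genes). The samples were cultured precursors of fat cells, adipose-derived stem cells (ADSCs) of subcutaneous fat from wild-type mice, which the study's methods give as male C57BL/6J. All of them went through primary adipocyte differentiation, 3 as the control group and 3 in the presence of NJT-2 (saikosaponin A), a terpenoid that the study selected as a ligand of the nuclear receptor PPARγ. RNA from each culture was sequenced as poly(A)-selected mRNA, and the deposited table gives a read count and an FPKM value (fragments per kilobase of gene length, scaled to the size of the library) for each gene. The labels give no dose and no day, and do not say whether the replicates came from separate animals, so p-values measure the spread between these libraries only. Ribosomal protein genes outside this table were not analysed here.

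The table held between 16093037 and 28929673 counts per library, which was 27.7% to 32.5% of the library totals implied by the FPKM values. Control replicate 1 had a TMM scaling factor of 0.77, against 0.967 to 1.11 in the other 5 libraries. The labelled cell type was checked with adipocyte markers. *Adipoq*, which encodes adiponectin, had an FPKM of 0.38 to 0.50 in the control libraries, close to absent, against 22.0 to 64.6 with NJT-2, while *Col1a1*, a collagen gene of fibroblasts and preadipocytes, was measured in all 6 libraries at 118 to 691. In such bulk samples, fewer cells of a type and less RNA per cell cannot be told apart.

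The cytosolic ribosome makes nearly all proteins of the cell. Most of its proteins are needed in equal numbers. The mRNAs of its proteins are short, abundant and, in most cases, start with an oligopyrimidine tract. Through this tract (a TOP sequence, a C followed by a run of C and T), mTORC1 and the RNA-binding protein LARP1 set the translation of these mRNAs. The mitochondrial ribosome is built from other proteins, also encoded in the nucleus, and translates only the mRNAs of the mitochondrial genome, which encode core subunits of the respiratory chain. In fat, beige and brown adipocytes are rich in mitochondria and depend on both kinds of ribosome for their respiratory complexes.

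The start sites show how these classes differ at the sequence level. RefSeq promoter sequences (GRCm38.p6) were matched by symbol for 12 of the 18 cytosolic and 14 of the 16 mitochondrial genes. A C followed by at least 4 letters C or T, read on the strand of the gene from 5 bases before to 10 bases after an annotated start, was found in 9 of the 12 cytosolic genes (75.0%), in 5 of the 14 mitochondrial genes (35.7%) and in 27.7% of all 27025 genes of the promoter table. With the C placed exactly at the annotated start, it was found in 4 of the 12 cytosolic genes (33.3%), in 0 of the 14 mitochondrial genes and in 3.01% of all genes. A match is a description of these letters only. The windows below hold 10 bases before the annotated start and 20 bases from it, with a match in capitals. In *Rplp2* and *Rpl15* the run of C and T begins before the annotated start, and only its part from that start is in capitals. A later match in *Mrpl11* is left in lower case. No capitals means that no tract was found. The windows are examples of genes with and without a tract, chosen after the matches were known. *Rplp2* lies at chr7:141447641-141447670 on the plus strand, *Rpl15* at chr14:18270967-18270996 on the minus strand, *Rpl10* at chrX:74270806-74270835 on the plus strand, *Mrpl10* at chr11:97041572-97041601, *Mrpl11* at chr19:4962296-4962325 and *Mrpl28* at chr17:26123493-26123522, the last 3 all on the plus strand.
Rplp2: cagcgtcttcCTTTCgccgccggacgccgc
Rpl15: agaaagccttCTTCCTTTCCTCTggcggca
Rpl10: tacagtggaagataggccgcctatataagg
Mrpl10: cgcagcgcgcatgggaaCTTCCTgtagcga
Mrpl11: ccgaacacgagggCCCTTCacctctgaccc
Mrpl28: cacgttcggtgacgctattccggttccggg
*Rplp2* and *Rpl15* thus both have a match with the C at the annotated start. They were at opposite ends of the cytosolic class in the comparison of the groups. A relation between the tract and the difference of the groups was not tested.

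The cytosolic genes took very different shares of the reads in the control libraries and nearly equal shares with NJT-2. They held 10.05%, 3.69% and 2.08% of the counts of the table in control replicates 1, 2 and 3, against 2.41%, 2.12% and 2.42% in the same order with NJT-2. The mean was 5.27% ± 4.21 (SD, n = 3) in the control group and 2.32% ± 0.168 (SD, n = 3) with NJT-2. Control replicate 1 was far above the other libraries, control replicate 2 lay between, and control replicate 3 was the lowest of all 6, so that the groups overlapped. The large and the small subunit showed the same order, with 4.95%, 1.80% and 1.01% for the Rpl genes and 5.10%, 1.89% and 1.07% for the Rps genes in control replicates 1, 2 and 3. With the share taken of the implied library totals, the values were 2.78%, 1.20% and 0.660% in the control libraries and 0.677% to 0.743% with NJT-2.

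The mitochondrial genes held far fewer reads and varied in both groups. Their share of the counts was 0.306%, 0.172% and 0.106% in control replicates 1, 2 and 3, against 0.166%, 0.0800% and 0.157% in the same order with NJT-2. NJT-2 replicate 2 was the lowest of the 6 libraries, and the other NJT-2 libraries lay within the range of the control libraries. For each 100 counts on cytosolic genes there were 3.05, 4.66 and 5.11 counts on mitochondrial genes in the control libraries, against 6.88, 3.77 and 6.47 with NJT-2. This ratio does not depend on the scaling of the libraries. It was not corrected for transcript length, which had a median of 794 bases in 17 of the cytosolic and 1103 bases in the mitochondrial genes. It was higher in NJT-2 replicates 1 and 3 than in all control libraries, and in NJT-2 replicate 2 it was below control replicates 2 and 3.

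**Figure D1:**
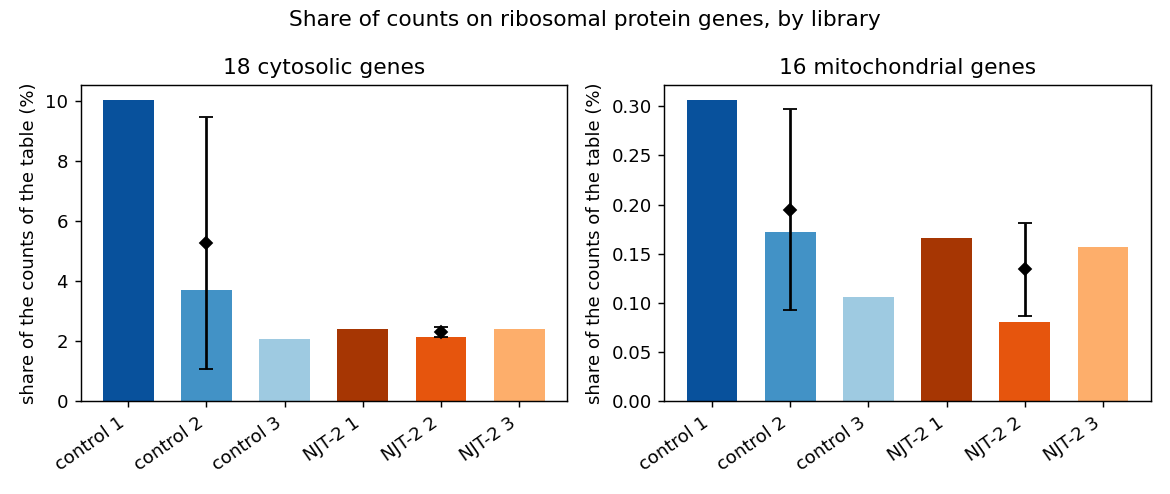
Share of the counts of the table, in percent, on the 18 cytosolic (left) and the 16 mitochondrial (right) ribosomal protein genes. Bars are libraries, and diamonds with error bars are the mean and SD of the 3 libraries of a group, drawn over the middle library. The cytosolic share falls from 10.05% to 2.08% among the control libraries and is 2.12% to 2.42% with NJT-2, while the mitochondrial share is lowest, at 0.0800%, in NJT-2 replicate 2.

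Among the cytosolic genes, 17 of the 18 reached the mean FPKM of 0.5 set for testing. The remaining gene, *Rpl3l* (ENSMUSG00000002500, chromosome 17 of GRCm38, 24727820 to 24736143), encodes a form of the large-subunit protein L3 known from heart and skeletal muscle, and had 0, 4 and 4 counts in the control libraries and 0, 0 and 19 with NJT-2. At these depths a difference in *Rpl3l* was not detectable, and no fold change is given. The 3 highest mean FPKM values were those of *Rplp1*, *Rpl19* and *Rpl8*. This order depends on the gene length behind the FPKM values, which was 1.0 to 4.38 times the longest protein-coding transcript over the 17 genes, and the FPKM of genes with a high ratio, such as *Rps18*, is low for their number of reads.

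*Rplp1* (ENSMUSG00000007892, chromosome 9, 61913284 to 61914542) encodes an acidic protein of the ribosomal stalk, which recruits elongation factors. Its FPKM was 9120, 2511 and 1167 in control replicates 1, 2 and 3, against 1292, 1293 and 1286 with NJT-2. The NJT-2 libraries were almost equal, with a coefficient of variation of 0.295%, and they lay above control replicate 3 and far below control replicate 1. Its partner in the stalk, *Rplp2* (ENSMUSG00000025508, chromosome 7, 141447370 to 141451585), had an FPKM of 1304, 192.6 and 84.8 in the control libraries and of 93.4, 105 and 80.7 with NJT-2. Control replicate 1 was 15.4 times control replicate 3, the widest ratio of the class, and control replicate 3 lay within the range of the NJT-2 libraries. In control replicate 1, *Rplp1* and *Rplp2* took 16.4% and 9.71% of the counts on cytosolic genes, against 8.63% to 10.5% and 2.25% to 3.33% in the other libraries.

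The other large-subunit proteins varied less. *Rpl8* (chromosome 15, 76904078 to 76906314), whose protein lies near the peptidyl transferase centre, had an FPKM of 1434, 674 and 385 in the control libraries and of 444, 350.1 and 452 with NJT-2. *Rpl19* (chromosome 11, 98026710 to 98030492) had 1184, 711 and 462 in the control libraries and 523, 443 and 537 with NJT-2. *Rpl10* (chromosome X, 74270812 to 74273135), whose protein joins the large subunit late in its assembly, had 506, 425 and 240.2 in the control libraries and 288, 284 and 289.9 with NJT-2. In each of these 3 genes control replicates 1 and 2 were above all NJT-2 libraries, and control replicate 3 was within or below their range. *Rpl15* (chromosome 14, 18267823 to 18271391) was the exception in the class, with 157, 227 and 148 in the control libraries and 153, 139 and 163 with NJT-2, so that its highest value was in control replicate 2.

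Among the small-subunit genes, *Rps27a* and *Rps14* fell from control replicate 1 to control replicate 3, as *Rplp1* did. *Rps27a* (chromosome 11, 29545846 to 29548109), which encodes a fusion of ubiquitin with a ribosomal protein, had an FPKM of 901, 279.8 and 139.9 in the control libraries and of 154, 132 and 154 with NJT-2. *Rps14* (chromosome 18, 60747098 to 60778546) had 806, 247 and 136 in the control libraries and 165, 149 and 159.6 with NJT-2. In both genes control replicates 1 and 2 lay above the NJT-2 libraries and control replicate 3 within or below them.

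Over the 17 tested cytosolic genes, the order control replicate 1, then 2, then 3 held in 16, and control replicate 3 was the lowest control library in 17. Control replicate 3 lay within the range of the NJT-2 libraries in 8 genes, below all of them in 8 and above all of them in 1. The coefficient of variation of the FPKM values ran from 24.5% to 128% with a median of 59.8% among the control libraries, and from 0.295% to 13.7% with a median of 6.85% among the NJT-2 libraries. Over all 3705 tested genes the medians were 38.7% and 27.3%. The cytosolic genes were thus more spread than the median gene in the control group and less spread than the median gene with NJT-2, as a description of these libraries.

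**Figure D2:**
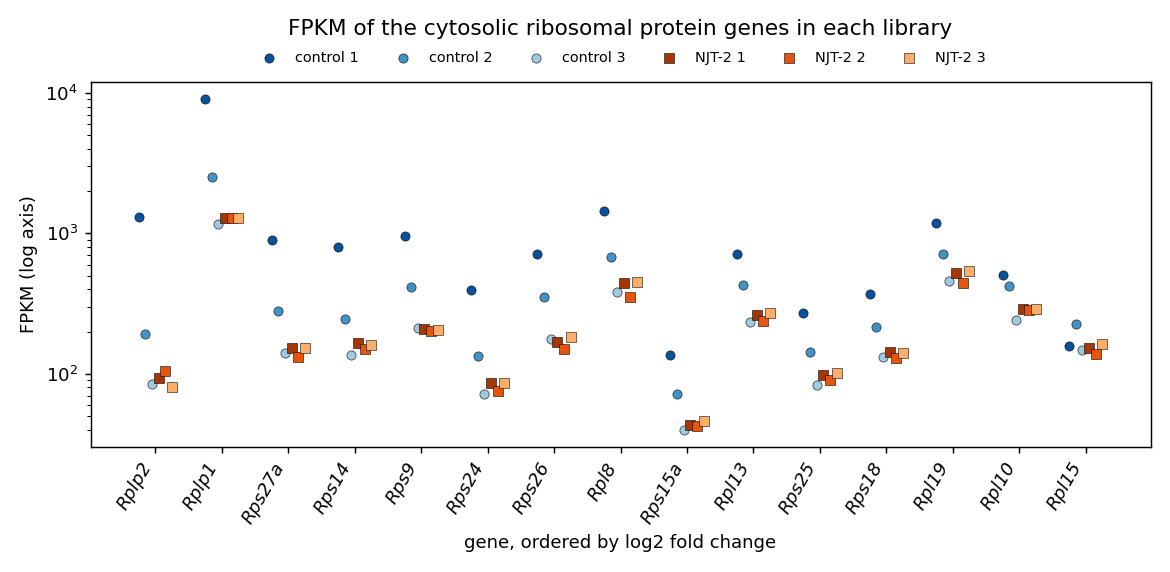
FPKM values (log axis) of 15 of the 17 tested cytosolic ribosomal protein genes, 1 point per library, with circles for control and squares for NJT-2. Genes run from *Rplp2*, with a log2 fold change of -3.02, to *Rpl15*, with -0.42. The NJT-2 libraries lie close together in each gene, control replicate 1 is the highest in each gene drawn but *Rpl15*.

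The difference between the groups was tested with edgeR's quasi-likelihood test over the 3705 genes that reached this level. Calls required a log2 fold change beyond 1 in either direction and a p of less than 0.05 after Benjamini-Hochberg adjustment, and 0.702% of all tested genes were called. Of the 17 cytosolic genes, 0 were called. Their median log2 fold change was -1.27, between -3.02 and -0.42 (median of all tested genes 0.02), so that 17 of 17 had a negative value (49.2% of all genes), and 13 had a value under -1 (12.8% of all genes). The lowest adjusted p was 0.238. At an unadjusted p under 0.05 there were 5 cytosolic genes, *Rplp2*, *Rps26*, *Rps9*, *Rps27a* and *Rplp1*, beside 17.8% of all genes in either direction and 9.72% in the lower direction (edgeR). *Rps26* and *Rps9* were named after their values were seen. *Rps26* had an FPKM of 712, 351 and 178 in the control libraries, against 169.7, 149.5 and 184 with NJT-2, and *Rps9*, a small-subunit protein, had 957, 418 and 214, against 209, 202 and 204. In FPKM, the NJT-2 libraries were all below the control libraries in 1 of the 17, *Rps9*, and all above them in 0, beside 11.5% of all genes with NJT-2 lower and 14.4% with NJT-2 higher. On the TMM-scaled log2 CPM scale the groups overlapped in all 17 genes, *Rps9* included, beside 14.0% of all genes with NJT-2 lower and 15.1% with NJT-2 higher.

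*Rplp2* had the largest difference, at -3.02 on the log2 scale (standard error 1.11, unadjusted p = 0.0277, adjusted p = 0.238, edgeR). *Rplp1* had -2.18 (standard error 0.87, adjusted p = 0.265), *Rps27a* -2.03 (standard error 0.81, adjusted p = 0.265) and *Rps14* -1.77 (standard error 0.79, adjusted p = 0.29), all in edgeR. At the other end, *Rpl15* had -0.42 (standard error 0.33), *Rpl10* -0.72 (0.47) and *Rpl19* -0.98 (0.53), with adjusted p-values from 0.338 to 0.476 in edgeR. DESeq2 on the same counts called 1 cytosolic gene, *Rplp2*, with a log2 fold change of -3.01 and an adjusted p of 0.0214, beside 7.94% of all genes with an adjusted p in that tool. At an unadjusted p under 0.05 DESeq2 gave 11 of the 17 cytosolic genes, beside 22.6% of all genes.

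Control replicate 1 decided the size of these values. Without it, the median log2 fold change of the 17 genes was -0.34 and the values ran from -0.67 to -0.15, with 0 genes at an unadjusted p under 0.05 (15.0% of all genes in the same fit, edgeR). *Rplp2* then had a log2 fold change of -0.57, *Rplp1* of -0.51, *Rps27a* of -0.53 and *Rps14* of -0.28, all still negative. Without control replicate 3, which resembled the NJT-2 libraries in this class, the median was -1.67 and 16 of the 17 genes had an unadjusted p under 0.05 (28.3% of all genes), while the lowest adjusted p was 0.11. Leaving out any of the NJT-2 libraries kept the median between -1.29 and -1.24.

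The high values of control replicates 1 and 2 moved with transcript length over the whole table. Each library was compared, per gene, with the mean of the NJT-2 libraries as a difference of log2 CPM (counts scaled to the library size with TMM factors). In the 76 genes outside the ribosome pathway with a longest protein-coding transcript under 800 bases, the median difference was 2.18, 0.73 and -0.09 in control replicates 1, 2 and 3. In the 687 genes with a transcript of at least 5000 bases it was -0.93, -0.53 and 0.05. The 17 cytosolic ribosomal protein genes, with a median transcript of 794 bases, had median differences of 2.25, 0.68 and -0.18 in the same libraries. These are close to the values of the genes under 800 bases. The cytosolic genes run from 499 to 5179 bases, so that part of them are longer than those they are set beside. Across the 3672 other genes, the Spearman correlation of the difference with transcript length was -0.430 and -0.426 in control replicates 1 and 2 and 0.047 in control replicate 3, and that with the GC content of the transcript was 0.453, 0.277 and 0.116. Genes of 1 library are not independent, so that these correlations are descriptions.

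Within the 17 cytosolic genes, the correlation of the difference with length was -0.047, -0.167 and -0.179 in control replicates 1, 2 and 3. Length here is that of the longest protein-coding transcript, from 499 to 5179 bases over the class. Which transcripts were expressed was not tested, and the correlations and the values that follow rest on this choice. Genes of similar transcript length differed, as the FPKM in control replicate 1 was 6.44 times that in control replicate 3 for *Rps27a* (791 bases) and 2.56 times for *Rpl19* (751 bases). With the trend of each library with transcript length taken out of the fit, the median log2 fold change of the class was -0.38, with 13 of 17 values negative and 1 gene at an unadjusted p under 0.05 (edgeR). Over all genes in the same fit the median was -0.07, with 53.3% of the values negative and 19.2% of the genes at an unadjusted p under 0.05. *Rplp2* had -1.80 in this fit and *Rplp1* -0.30, and *Rpl10* (0.17) and *Rpl19* (0.09) had positive values.

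**Figure D3:**
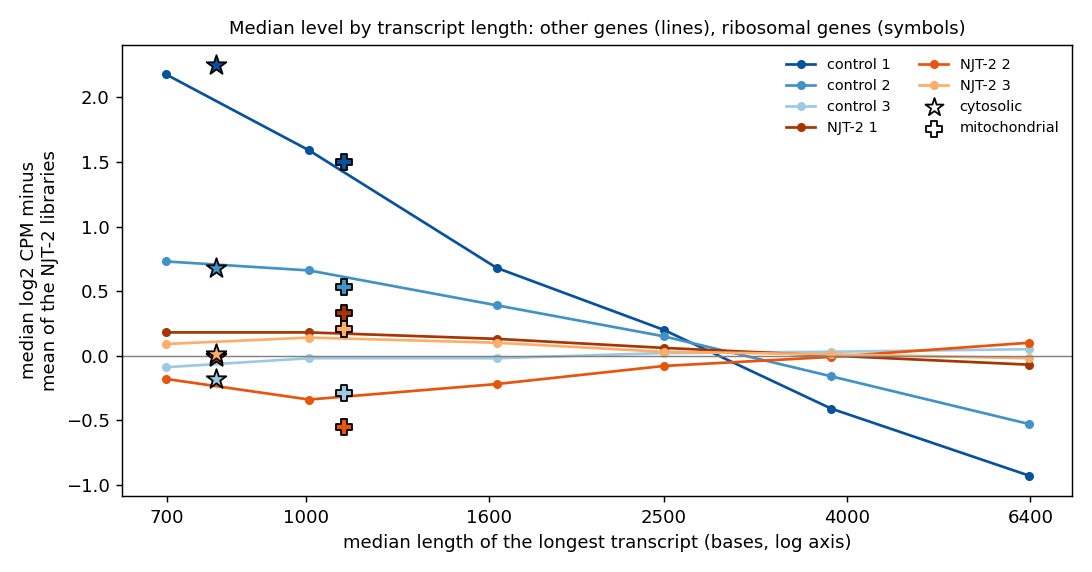
Median difference in log2 CPM between each library and the mean of the NJT-2 libraries, against the median length of the longest protein-coding transcript (log axis). Lines join 6 length classes of the genes outside the ribosome pathway, stars mark the 17 cytosolic and crosses the 16 mitochondrial ribosomal protein genes. Control replicate 1 falls from 2.18 in the shortest class to -0.93 in the longest, and the star of that library stands at 2.25.

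All 16 mitochondrial genes passed the filter, and 0 of them were called (0.702% of all tested genes). Their median log2 fold change was -0.66, between -1.73 and 0.07. Of the 16 values, 15 were negative (49.2% of all genes) and 6 were under -1 (12.8% of all genes). The lowest adjusted p was 0.29 and 0 genes had an unadjusted p under 0.05 in edgeR (17.8% of all genes), while DESeq2 gave 3 of the 16 genes at an unadjusted p under 0.05 (22.6% of all genes) and called 0. In 0 of the 16 genes were the groups free of overlap, in FPKM or in log2 CPM. Over all genes the shares in FPKM were 11.5% with NJT-2 lower and 14.4% with NJT-2 higher. In log2 CPM they were 14.0% and 15.1%. NJT-2 replicate 2 was the lowest of all 6 libraries in 14 of the 16 genes, against 8 of the 17 cytosolic genes. Among the NJT-2 libraries alone it was the lowest in 15 of the 16 mitochondrial and 15 of the 17 cytosolic genes. The same held in 2153 of all 3705 tested genes. Control replicate 3 was the lowest control library in all 16 mitochondrial genes, as in the cytosolic class.

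*Mrpl11* (ENSMUSG00000024902, chromosome 19, 4962147 to 4966999), a protein at the base of the stalk of the mitochondrial large subunit, had an FPKM of 19.8, 6.30 and 3.34 in control replicates 1, 2 and 3 against 5.33, 2.17 and 4.59 with NJT-2. The edgeR fit gave -1.73 on the log2 scale (standard error 0.82, adjusted p = 0.299), and -0.29 without control replicate 1. *Mrpl28* (ENSMUSG00000024181, chromosome 17, 26123500 to 26126613) had 83.4, 28.9 and 15.1 in the control libraries and 22.1, 11.6 and 21.03 with NJT-2, for which edgeR gave -1.66 on the log2 scale (standard error 0.77, adjusted p = 0.296), and -0.30 without control replicate 1. *Mrpl13* (chromosome 15, 55534094 to 55557748) had 16.4, 7.97 and 3.84 in the control libraries and 5.05, 3.12 and 5.06 with NJT-2. In these 3 genes control replicate 1 was the highest library, as in the cytosolic class, and NJT-2 replicate 2 the lowest. *Mrpl24* (chromosome 3, 87919506 to 87923672) was, with *Mrpl10* and *Mrpl28*, among the 3 most abundant mitochondrial genes by FPKM, with 68.7, 37.1 and 21.03 in the control libraries and 28.4, 17.2 and 26.8 with NJT-2.

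The other end of the class looked different. *Mrpl10* (chromosome 11, 97041560 to 97049213), a stalk protein, had an FPKM of 27.4, 37.9 and 26.7 in the control libraries and of 36.2, 17.7 and 36.7 with NJT-2. *Mrpl16* had 5.53, 5.86 and 4.17 in the control libraries and 7.79, 2.39 and 6.59 with NJT-2, with NJT-2 replicates 1 and 3 above every control library and NJT-2 replicate 2 below them. *Mrpl32* (chromosome 13, 14608184 to 14613165), whose protein is matured by a mitochondrial protease before it enters the ribosome, had 3.49, 4.42 and 2.96 in the control libraries and 4.87, 3.40 and 4.98 with NJT-2. Their log2 fold changes of -0.23, -0.15 and 0.07, with standard errors of 0.37, 0.50 and 0.35, did not differ from 0 beyond the replicate error (adjusted p from 0.731 to 0.913, edgeR), and each of the 3 took the opposite sign in some of the alternatives.

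Over the class, the median difference from the mean of the NJT-2 libraries was 1.5, 0.53 and -0.29 in control replicates 1, 2 and 3 and 0.33, -0.55 and 0.21 with NJT-2, on the log2 CPM scale. The median transcript of the class has 1103 bases. In the 219 genes outside the ribosome pathway with 800 to 1200 bases, the differences had the same order of libraries. They were 1.59, 0.66 and -0.02 in control replicates 1, 2 and 3 and 0.18, -0.34 and 0.14 with NJT-2. In the mitochondrial class, the coefficient of variation of the FPKM values with NJT-2 had a median of 34.3%. It ran from 7.03% in *Mrpl14* to 50.7% in *Mrpl16*, where the cytosolic class had a median of 6.85%. Without NJT-2 replicate 2, the median log2 fold change was -0.44, and without control replicate 1 it was -0.15. Without both libraries, a choice made after seeing the data, it was 0.14, with 6 of 16 values negative, beside -0.29 with 17 of 17 negative in the cytosolic class and 52.3% negative over all genes, and 0 genes of either class were called. With the length trend taken out it was 0.09.

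**Figure D4:**
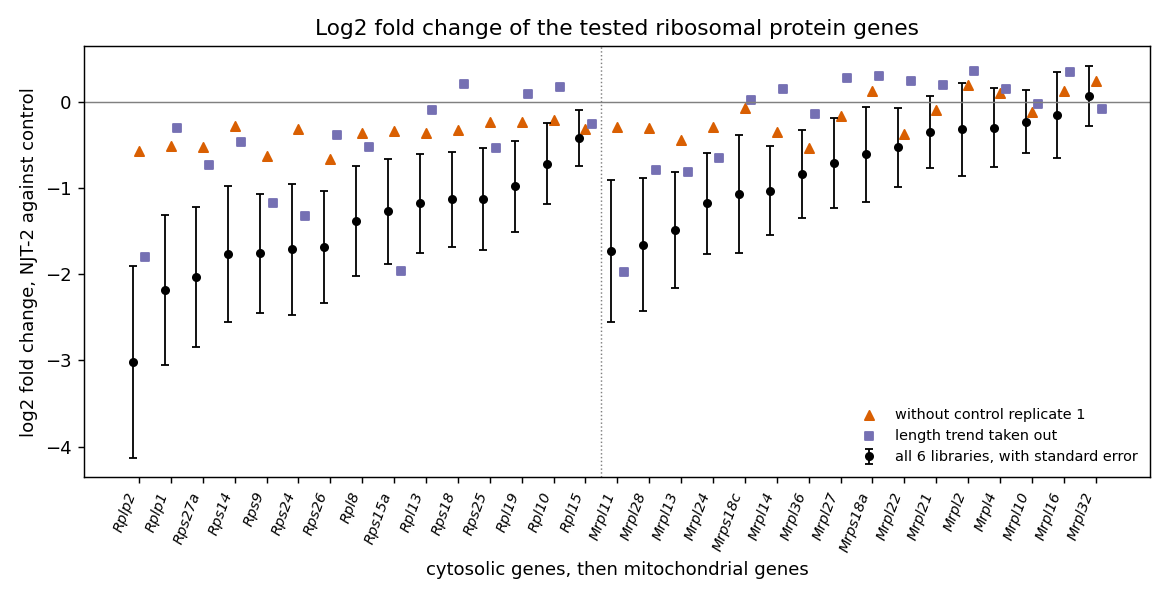
Log2 fold change of NJT-2 against control for 15 of the 17 tested cytosolic and, right of the dotted line, the 16 mitochondrial ribosomal protein genes. Circles with standard errors are from all 6 libraries, triangles from the fit without control replicate 1 and squares from the fit with the length trend taken out. Over all tested genes of each class, the medians were -1.27 and -0.66 for all 6 libraries and -0.34 and -0.15 without control replicate 1.

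NJT-2 replicate 2 also differed from the other NJT-2 libraries in markers of the cells. The 5 adipocyte markers in the table (of 11 listed) summed to a CPM (relative to the table total) of 18083 and 13802 in NJT-2 replicates 1 and 3, to 3433 in NJT-2 replicate 2 and to 1866 to 3043 in the control libraries, and 2 of the 5 were called higher, none lower. *Lpl*, lipoprotein lipase, held 88.7% to 98.0% of these counts in each library. The other 4 markers were higher in NJT-2 replicate 2 than in every control library, in FPKM, with 22.0 against at most 0.50 for *Adipoq*, 8.17 against at most 1.92 for *Plin4*, 13.0 against at most 6.41 for *Pparg* and 1.94 against at most 0.86 for *Retn*, and in each of them NJT-2 replicates 1 and 3 were higher still. The 3 macrophage markers (of 10) summed to 89.5 to 111 in the control libraries and 231 to 442 with NJT-2, with 1 called higher, and the 5 preadipocyte and fibroblast markers (of 11) to 5071, 15142 and 19883 in control replicates 1, 2 and 3 and to 8954 to 10211 with NJT-2, with 1 called lower. *Col1a1* had the most counts of these 5 in every library, with an FPKM of 118 in control replicate 1 against 376 to 408 with NJT-2. *Cd34* was also lower in that library (0.40 against 0.58 to 0.75). *Pi16* (22.3 against 0.98 to 1.95) and *Pdgfrb* (56.7 against 19.5 to 41.0) were higher in it, and *Dcn* (29.8 against 28.0 to 46.3) lay within the NJT-2 range. Of 3 endothelial markers (of 5), summing to 11.1 to 40.5, 2 were tested and 0 were called. The part of these cells in the ribosomal values was not tested.

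**Figure D5:**
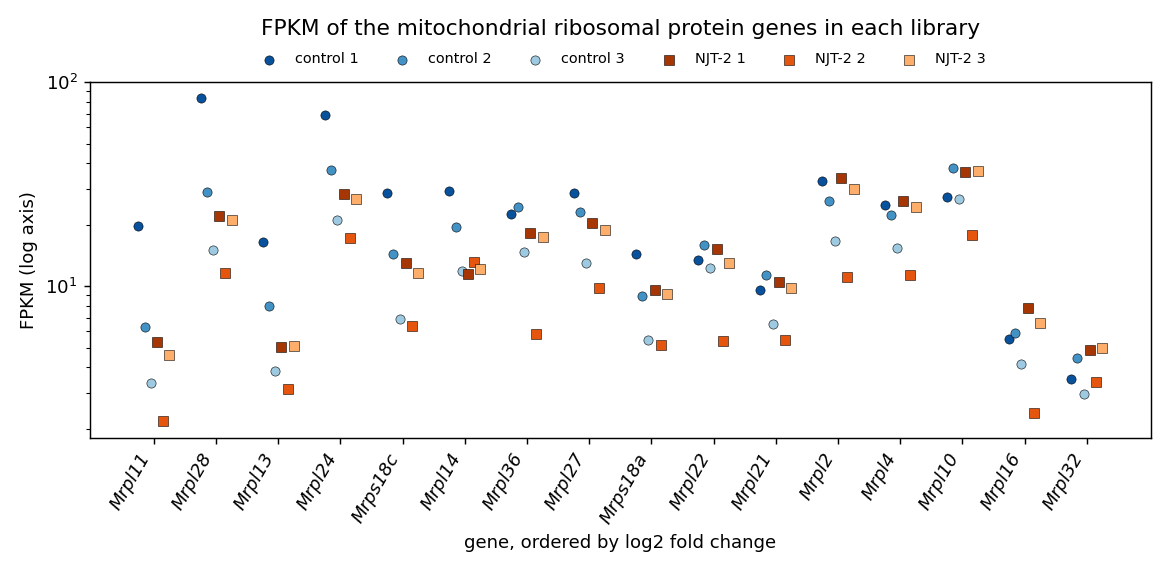
FPKM values (log axis) of the 16 mitochondrial ribosomal protein genes, 1 point per library, with circles for control and squares for NJT-2, ordered by log2 fold change from *Mrpl11* (-1.73) to *Mrpl32* (0.07). NJT-2 replicate 2 is the lowest of the 6 libraries in 14 of the 16 genes.

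A further 14 Mrpl and Mrps genes of the table, which the KEGG column does not assign to the ribosome, were examined beside the 16. All were tested, 0 were called (0.702% of all tested genes), and 10 of the 14 had a negative log2 fold change (49.2% of all genes). The median was -0.45 (from -2.32 in *Mrpl52* to 0.20 in *Mrps30*). *Mrpl52* had an FPKM of 88.0, 25.7 and 12.5 in the control libraries and of 12.9, 8.51 and 13.1 with NJT-2, and *Mrps30* had 3.47, 4.70 and 2.94 in the control libraries and 5.71, 3.40 and 5.67 with NJT-2. The median difference from the mean of the NJT-2 libraries was 1.02, 0.34 and -0.27 in control replicates 1, 2 and 3 against 0.26, -0.40 and 0.18 with NJT-2, the same order of libraries as in the 16 genes.

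Genes around the ribosome were read from lists, and none of their genes was called. Of 30 translation factors and other genes with TOP mRNAs, 8 were in the table and tested, with 4 negative and 4 positive log2 fold changes and a median of -0.10. *Pabpc1*, the poly(A)-binding protein, had an FPKM of 22.0, 173 and 196 in control replicates 1, 2 and 3 and of 149, 233 and 154 with NJT-2, so that control replicate 1 was the lowest library, and its longest protein-coding transcript has 2817 bases. *Rack1*, a protein of the small subunit of the ribosome that is not in the KEGG pathway, had 322, 310 and 196 in the control libraries and 233, 206 and 243 with NJT-2, with a transcript of 1447 bases. *Rack1* thus kept the order of the control libraries seen in the ribosomal protein genes, over a narrower range, and *Pabpc1* did not.

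Of 61 genes of ribosome biogenesis, 16 were tested, 8 with a negative and 8 with a positive log2 fold change and a median of 0.00. *Sbds*, needed for the release of a factor that keeps the subunits apart, was the only gene of this list with an unadjusted p under 0.05 (log2 fold change 0.91, adjusted p = 0.204, edgeR), with an FPKM of 10.1, 20.3 and 20.1 in the control libraries and of 32.1, 37.5 and 32.5 with NJT-2. Of 39 genes of mitochondrial translation and ribosome assembly, 15 were tested, with a median of 0.11. A positive log2 fold change was found in 12 of them (1883 of all 3705 tested genes). *Lrpprc*, which stabilizes mitochondrial mRNAs, had an FPKM of 1.74, 3.43 and 4.33 in the control libraries and of 13.7, 4.41 and 12.5 with NJT-2 (log2 fold change 1.56, adjusted p = 0.173, edgeR). Its partner *Slirp* had 18.6, 4.68 and 2.48 in the control libraries and 3.48, 1.55 and 2.71 with NJT-2 (log2 fold change -2.21, adjusted p = 0.269, edgeR). Of 21 genes of mTORC1 and of the control of TOP mRNAs, 11 were tested, 6 positive and 5 negative, with a median of 0.11 and 3 at an unadjusted p under 0.05, all positive (17.8% of all genes in either direction). *Larp4*, *Sbds*, *Lrpprc*, *Slirp*, *Mrpl52* and *Mrps30* were named after their values were seen. *Larp4*, an RNA-binding protein of poly(A) tails, had an FPKM of 1.41, 3.49 and 6.40 in the control libraries and of 9.49, 9.36 and 9.25 with NJT-2. Its log2 fold change was 1.26 (adjusted p = 0.212, edgeR). The groups did not overlap in FPKM, with NJT-2 higher, as in 14.4% of all genes. Its longest protein-coding transcript has 6530 bases, and that of *Lrpprc* 4393. Genes outside the ribosome pathway with at least 5000 bases had median differences of -0.93 and -0.53 in control replicates 1 and 2. In those with 3000 to 5000 bases, the length class of *Lrpprc*, the medians were -0.41 and -0.16.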

How the data were processed

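Poly(A)-selected mRNA was sequenced from 3 control and 3 NJT-2 cultures. The submitters' processing notes name cutadapt 1.9, HISAT2 2.2.1, StringTie 2.1.6 and the build GRCm38. The deposited counts are whole numbers of reads per gene without normalization, and the deposited FPKM values are the authors' own. The counting tool, annotation release and use of strand are not given in the sources used here. Ribosomal protein genes have many processed pseudogenes, so that reads could have been divided among copies.

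Of 4865 lines, 1 was incomplete and left out. All 6 count and 6 FPKM columns were matched to libraries by title. Members, lists and tests were chosen with earlier results of these data known. Named genes were members with an adjusted p under 0.05, the 5 cytosolic and 3 mitochondrial genes of highest mean FPKM, the 4 (cytosolic) or 3 (mitochondrial) highest and lowest log2 fold changes, paralogs, and members under the filter, with called genes and the most abundant of each list. Some results under this rule are not reported here. Counts were tested with edgeR 4.0.16 (R 4.3.3, TMM factors, quasi-likelihood test). The standard error is the log2 fold change divided by the square root of F. Library totals came from FPKM values of well-covered genes with 1 transcript, and transcript lengths from GENCODE M21. The test was also run on simulated counts without the trend with transcript length, so that this run does not show how it behaves on these libraries. All replicate pairs differed beyond counting error. The chi-square per gene was 48.4 between NJT-2 replicates 1 and 3, and 389 to 1669 in the other pairs within a group. NJT-2 replicates 1 and 3 were thus far more alike than any other pair, and the reason was not tested. Alternatives were DESeq2 1.42.0, limma 3.58.1 on log2(FPKM + 1), other scalings and filters, a replicate block, a length offset, and leaving out libraries. Counting error is small at these depths beside the spread between replicates.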

Additional observations from a re-analysis of the deposited data

How the results depend on the processing

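None of the 16 mitochondrial genes was called under any alternative, and of the 17 cytosolic genes DESeq2 called 1 (*Rplp2*, -3.01) and no other alternative called any. At an unadjusted p under 0.05 there were 5 cytosolic genes and 658 of all genes. Of all genes, 26 were called in the main comparison, 289 by DESeq2, 0 to 75 when leaving out each library, and 482 without both control replicate 1 and NJT-2 replicate 2, a choice made after seeing the data. Leaving out each library, the median log2 fold change ran from -1.67 to -0.34 in the cytosolic class and from -1.02 to -0.15 in the mitochondrial class. The difference in share ran from -4.55 to -0.569 percentage points for the cytosolic and from -0.105 to -0.00502 for the mitochondrial genes, the value nearest to 0 being that without control replicate 1 each time. Without both libraries named above, the medians were -0.29 and 0.14, the mitochondrial share differed by 0.022 points, and *Mrpl10*, *Mrpl11*, *Mrpl16* and *Mrpl32* had log2 fold changes of 0.17, 0.03, 0.51 and 0.41. With the length trend taken out, the mitochondrial median was 0.09, *Mrpl16* had 0.34, *Mrpl32* -0.08, *Rpl10* 0.17 and *Rpl19* 0.09. With the implied library totals the median of all genes moved to 0.16, the class medians were -0.91 and -0.35, and *Mrpl16* had 0.11. Leaving out each library, *Mrpl11* ran from -2.21 to -0.29, *Mrpl16* from -0.45 to 0.20, *Mrpl32* from -0.16 to 0.24 and *Mrpl10* from -0.44 to 0.01. The cause of these changes was not tested.

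The replicate numbers are not stated to pair the samples. The deviations of samples with the same number from their group means correlated at 0.179, 0.0325 and -0.207, so that the numbers were not taken as pairs. With the replicate block, 57 of all genes and 0 ribosomal protein genes were called, and the class medians were -0.93 and -0.60.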
